A study of Mus musculus with 2 samples.

Results

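The cells described here were 379 periosteal cells with high counts of *Thbs4* and *Tnmd*. Of 9596 retained cells in all, 4455 came from the control library, where 179 were members (4.02%, exact binomial 95% interval 3.46 to 4.64), and 5141 from the *Piezo1* fl/fl library, where 200 were members (3.89%, 3.38 to 4.46). A cell was kept when it had 1000 to 5000 detected genes and under 25% mitochondrial counts. It was a member when *Thbs4* reached 40 and *Tnmd* reached 10 per 10000 of its unique molecular identifiers (UMIs, tags that count each captured mRNA molecule once), when it held at least 1 UMI of *Kera*, *Chodl*, *Col22a1* or *Reln*, hereafter the entry genes, and when it held 0 UMIs of *Wnt16* and of *Npnt*. These 8 genes chose the cells, so their levels are given as a description.

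The cells came from the periosteum of femurs and tibias of 8-week-old mice and were sorted for the Prx1 reporter before BD Rhapsody whole-transcriptome capture. Control mice carried Prx1 Cre with Ai9/+, a red reporter that Cre turns on, and the other mice carried Piezo1 fl/fl in addition to the same alleles. Prx1 Cre acts in the limb mesenchyme broadly, so any loss of *Piezo1* was not limited to the cells described here. There was 1 library per genotype, and the number and sex of the animals behind each are not given in the sources used here. Genotype, animals, sort and library therefore cannot be told apart, no test was made between libraries, and all intervals below are exact 95% intervals that cover counting error only.

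Tenocytes, the resident cells of tendon, form from progenitors that express the transcription factor *Scx* and later produce *Tnmd*, a membrane glycoprotein widely used as a marker of mature tendon cells. *Mkx* is a further transcription factor that maintains type I collagen in tendon, and small leucine-rich proteoglycans such as fibromodulin, the product of *Fmod*, regulate the thickness of its collagen fibrils. Tendons and ligaments attach to bone through the periosteum, and thrombospondin 4, the product of *Thbs4*, is a matrix protein of muscle and tendon attachments.

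In total 6118 barcodes and 28030299 UMIs were deposited for the control, and 7469 barcodes and 32337308 UMIs for *Piezo1* fl/fl. Members had a median of 5006 UMIs and 1845 genes in the control library and of 4568 UMIs and 1687 genes in the *Piezo1* fl/fl library. The libraries shared 50 barcodes, of which 2 belonged to control members and 6 to *Piezo1* fl/fl members, and no barcode was a member in both. Levels below are UMIs summed over a group of cells and divided by all UMIs of the group, as counts per 1000000 (CPM). They count 3′ ends and do not grow with transcript length, although capture can differ between genes.

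*Piezo1*, the mechanosensitive channel whose gene carries the floxed allele, was near the limit of detection in members. Control members held 7 *Piezo1* UMIs (6.28 CPM) and *Piezo1* fl/fl members 1 (0.891 CPM). Endothelial-like cells, defined by UMIs of *Pecam1* and *Cdh5*, held 18 (30.3 CPM) and 7 (17.4 CPM). Which exons the allele removes is not given in the sources used here, so 3′ counts at this depth do not check the deletion.

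Among the genes of the rule, *Thbs4* was the most abundant. Its summed level was 20158 CPM in control members and 20862 CPM in *Piezo1* fl/fl members, and single control members ranged from 42.9 to 626 UMIs per 10000 with a median of 181.5, against 40.2 to 832 with a median of 203.9. *Tnmd* stood at 3575 and 3401 CPM, with medians of 31.3 and 30.1 UMIs per 10000. *Kera*, which encodes the corneal and tendon proteoglycan keratocan, was at 2764 CPM in control and 1447 CPM in *Piezo1* fl/fl members. *Chodl*, a membrane lectin gene, was alike at 1029 and 1018 CPM. *Col22a1*, a collagen gene of myotendinous junctions, was at 202.9 and 136.3 CPM, and *Reln*, which encodes the secreted glycoprotein reelin, at 117.6 and 57.0 CPM.

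**Figure D1:**
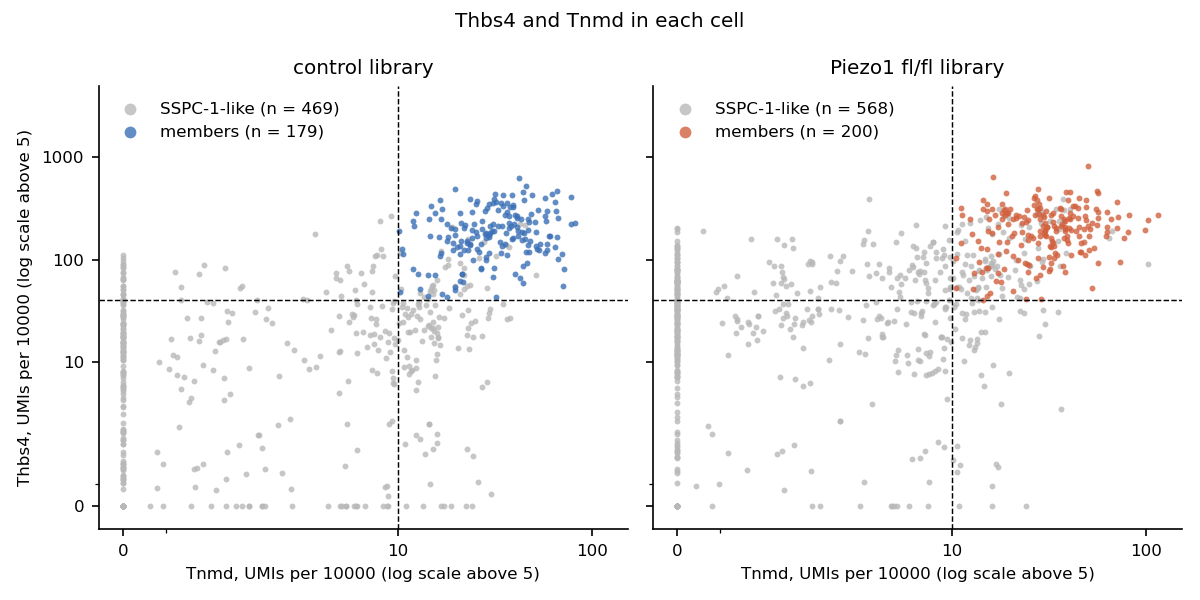
*Thbs4* (vertical axis) against *Tnmd* (horizontal axis) in UMIs per 10000 of each cell, with linear spacing up to 5 and log spacing above, in SSPC-1-like cells (grey) and members (colour). Dashed lines mark the thresholds of 40 and 10; in the *Piezo1* fl/fl library more grey cells lie in the upper right field, at both thresholds but without an entry gene or with *Wnt16* or *Npnt*.

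Within 1.5 times the threshold lay 10 control and 9 *Piezo1* fl/fl members for *Thbs4* and 15 and 17 for *Tnmd*. The control members nearest to the *Thbs4* threshold had 42.9, 43.1 and 43.7 UMIs per 10000, and the nearest cells that failed on this gene alone had 34.6, 32.2 and 30.4, with 8 such cells in all. For *Tnmd* the nearest control members had 10.2, 10.3 and 10.5 and the nearest cells outside 9.9, 9.8 and 9.3. In the *Piezo1* fl/fl library 92 cells failed on *Tnmd* alone, against 35 in the control library, and 5 failed on *Thbs4* alone.

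The near-equal shares of members depended on the entry genes. At both thresholds, before the other terms of the rule, stood 255 control cells (5.72%, 5.06 to 6.45) and 441 *Piezo1* fl/fl cells (8.58%, 7.83 to 9.38). An entry gene was found in 74.5% (68.7 to 79.7) of the former and 49.0% (44.2 to 53.8) of the latter. The *Thbs4* threshold alone was met by 9.59% and 19.7% of retained cells and the *Tnmd* threshold alone by 9.02% and 10.3%. Cells high in both genes but without a UMI of *Kera*, *Chodl*, *Col22a1* or *Reln* thus numbered 65 in the former library and 225 in the latter.

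Levels of the rule genes were also read from held-out UMIs of the chosen cells. The same genes chose these cells, so high held-out ratios follow from the rule and are again a description. Each cell's UMIs were split at random, 156 control and 186 *Piezo1* fl/fl cells were chosen on one portion, and levels were read from the other. Held-out *Thbs4* reached 20689 CPM in the chosen control cells against 2376 CPM in SSPC-1-like ones, a log2 ratio of 3.12 (3.06 to 3.18), and the ratio in *Piezo1* fl/fl cells was 1.87 (1.83 to 1.92). SSPC-1-like cells, the main comparison here, carry the name the study gives to a skeletal stem and progenitor population of the fibrous periosteal layer. They were taken as cells with a UMI each of *Col8a1* and *Egfl6* that were not members, and numbered 469 (control) and 568 (*Piezo1* fl/fl). Cells that also met the definition of another comparison group below, or of blood cells, were left out of them, whereas members were not filtered in this way. For *Tnmd* the held-out log2 ratios were 2.19 and 2.16, for *Kera* 5.84 and 4.23, and for *Chodl* 6.95 and 5.57.

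The promoters of 5 genes that recur below are shown to compare their E-boxes, the letters CANNTG that bind basic helix-loop-helix factors such as *Scx*. Each run is the 250 bases before the RefSeq transcription start in the build GRCm38.p6, 5′ to 3′ on the strand of the gene, with E-boxes in capitals. The motif is palindromic, so that one strand covers both.
Tnmd, chrX:133850758-133851007, plus strand: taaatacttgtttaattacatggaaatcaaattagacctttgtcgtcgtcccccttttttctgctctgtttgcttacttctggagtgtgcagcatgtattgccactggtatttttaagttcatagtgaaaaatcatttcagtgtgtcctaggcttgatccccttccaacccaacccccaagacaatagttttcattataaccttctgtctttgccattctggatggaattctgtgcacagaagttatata
Thbs4, chr13:92794819-92795068, minus strand: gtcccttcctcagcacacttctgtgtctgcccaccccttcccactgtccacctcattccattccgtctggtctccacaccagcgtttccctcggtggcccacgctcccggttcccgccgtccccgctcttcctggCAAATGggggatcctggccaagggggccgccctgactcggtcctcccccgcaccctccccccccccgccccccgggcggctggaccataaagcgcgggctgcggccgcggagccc
Chodl, chr16:78930698-78930947, plus strand: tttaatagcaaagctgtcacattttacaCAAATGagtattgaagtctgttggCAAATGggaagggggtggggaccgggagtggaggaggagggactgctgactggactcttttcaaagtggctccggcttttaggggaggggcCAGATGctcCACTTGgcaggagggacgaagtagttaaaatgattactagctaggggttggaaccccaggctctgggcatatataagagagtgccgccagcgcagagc
Angptl7, chr4:148500463-148500712, minus strand: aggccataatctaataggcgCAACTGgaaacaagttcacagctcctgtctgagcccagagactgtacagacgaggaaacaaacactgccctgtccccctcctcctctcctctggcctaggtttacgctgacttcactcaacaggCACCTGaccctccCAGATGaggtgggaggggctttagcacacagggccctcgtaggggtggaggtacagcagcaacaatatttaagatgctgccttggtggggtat
Mstn, chr1:53061390-53061639, plus strand: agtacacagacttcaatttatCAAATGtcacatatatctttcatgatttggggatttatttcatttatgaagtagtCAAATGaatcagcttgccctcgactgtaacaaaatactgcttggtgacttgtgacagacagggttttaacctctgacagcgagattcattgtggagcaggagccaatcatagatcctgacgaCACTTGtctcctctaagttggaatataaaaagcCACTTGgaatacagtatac
These windows held 0 E-boxes for *Tnmd*, 1 for *Thbs4*, 4 for *Chodl*, 3 for *Angptl7* and 4 for *Mstn*. Of all 32851 RefSeq promoter windows of this length, 66.2% held at least 1, 12.2% at least 3 and 3.80% at least 4. Of 12 genes looked up, 9 were in the table, and those of *Kera*, *Fmod*, *Reln* and *Cilp* held 0, 1, 1 and 3. A match is a run of letters and not a measured binding site.

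Tendon markers outside the rule bore out the label in part. *Fmod* was at 16483 CPM in control and 13826 CPM in *Piezo1* fl/fl members, 2.81-fold and 2.61-fold the level of SSPC-1-like cells. *Scx* was 3.33-fold (136.4 against 41.0 CPM) and 4.89-fold (1310 against 267.9 CPM) higher in members. *Mkx* was 1.61-fold (169.6 against 105.7 CPM) and 1.45-fold (118.5 against 82.0 CPM) higher, within the 2-fold limit used below. *Comp*, a pentameric matrix protein of tendon and cartilage, was almost level, with log2 ratios of 0.01 and 0.33, and *Cilp2* likewise with -0.09 and 0.44. *Chad*, which encodes the collagen-binding protein chondroadherin, was lower in members, with log2 ratios of -0.47 in each library. Thus *Fmod* and *Scx* distinguished members from SSPC-1-like cells, while *Comp*, *Chad* and *Cilp2* did not mark members above them.

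Against cells further away, all of these genes stood high in members. In control fibroblast-like cells, which held UMIs of *Pi16* and *Dpp4*, *Fmod* was at 214.5 CPM, *Scx* at 2.45 CPM, *Mkx* at 3.06 CPM, *Chad* at 157.5 CPM and *Comp* at 143.4 CPM. In control SSPC-2-like cells, which held *Tnn* with *Postn* of at least 20 UMIs per 10000, *Fmod* was at 1872 CPM, *Scx* at 45.4 CPM and *Mkx* at 24.0 CPM. Members therefore shared *Fmod*, *Chad*, *Comp* and *Mkx* with SSPC-1-like cells more than with any other group compared.

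*Six2*, a homeodomain factor of limb connective tissue, separated members from the other groups in both libraries. Its level was 67.3 CPM in control members, while SSPC-1-like, SSPC-2-like and fibroblast-like cells had 3.58, 5.29 and 11.6 CPM. With *Piezo1* fl/fl, members had 65.0 CPM and these groups 7.71, 7.86 and 4.40 CPM. A *Six2* UMI was found in 26.8% of control members and 22.0% of *Piezo1* fl/fl members, and after thinning each cell to 2500 UMIs in 16.4% and 14.1%. Mural-like cells, which held *Notch3* with *Myh11* or *Rgs5* and stand in for background, had 0.660% and 1.57% at median depths of 3855 and 4059 UMIs.

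**Figure D2:**
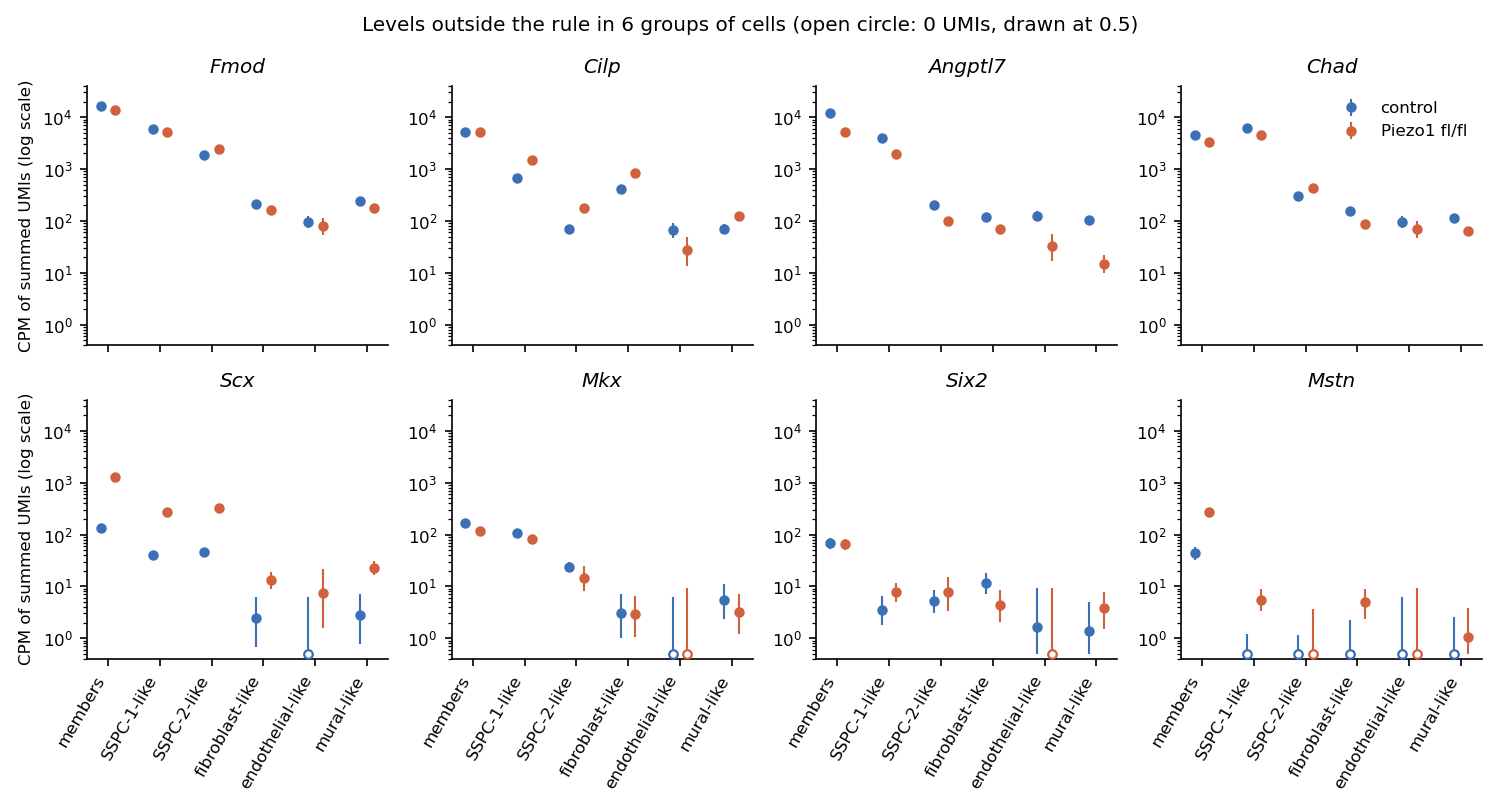
Levels of 8 genes outside the rule in 6 groups of cells, as CPM of summed UMIs on a log axis, with 95% counting intervals and 1 point per library. *Six2* and *Mstn* are above 40 CPM in members and at most 11.6 CPM in the other groups, *Scx* is higher in *Piezo1* fl/fl cells in every group with UMIs in both libraries, and *Chad* is highest in SSPC-1-like cells.

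Markers of other tissues were scarce in members. The 6 blood markers summed to 32.3 CPM in control and 31.2 CPM in *Piezo1* fl/fl members, and 1 and 2 members met the gate for blood cells. This was more than in any comparison group, as in SSPC-1-like cells with 15.9 and 17.6 CPM, but blood cells were left out of those groups. Of the 36 blood marker UMIs of control members, 17 were in 1 cell. The 6 endothelial markers summed to 17.1 and 41.0 CPM with *Emcn* and *Egfl7* at 0 UMIs in both libraries. The 6 mural markers summed to 96.9 and 94.4 CPM, of which *Acta2* made up 80.8 and 82.0 CPM. The 10 skeletal muscle markers summed to 19.8 and 20.5 CPM, with 6 of them at 0 UMIs in each library, and the 6 Schwann and perineurial markers to 25.1 and 9.80 CPM. The 6 cell cycle genes summed to 5.39 and 2.67 CPM, with *Mki67* at 0 UMIs in both libraries. None of these lists had a gene past the minimums used below except the Schwann list, whose *S100b* was lower in members of both libraries than in SSPC-1-like cells (15.3 against 175.0 CPM in the control library).

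The transcriptome of members was dominated by fibrillar collagen and its partners. *Col1a1* and *Col1a2*, the chains of type I collagen, were at 58187 and 49773 CPM in control members and at 58506 and 46813 CPM in *Piezo1* fl/fl members. *Sparc*, which encodes a collagen chaperone, was at 35856 and 33082 CPM, and *Dcn*, which encodes the fibril-binding proteoglycan decorin, at 17224 and 16026 CPM. After *Fmod* came *Angptl7*, a secreted angiopoietin-like factor, at 11891 CPM in control members. *Cilp*, an extracellular antagonist of TGF-beta and IGF1, was at 5241 and 5195 CPM. The 15 most abundant genes of control members outside the rule also took in *Col3a1*, *Ogn*, *Timp2*, *Fos*, *Chad*, *Prelp*, *Mgp* and *Serpinf1*, all matrix proteins or secreted inhibitors except the immediate early gene *Fos*.

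Across all genes, members were compared with SSPC-1-like cells of the same library. A gene was counted when its higher side had at least 100 UMIs and 50 CPM and was at least 2-fold the other. Of 2920 genes that passed the minimums in the control library, 98 were higher in members (3.36%) and 293 lower (10.0%). Of 2879 in the *Piezo1* fl/fl library, 61 were higher (2.12%) and 201 lower (6.98%). The median log2 ratio over all genes was -0.22 in both libraries. These shares over all genes are the background for the list counts below.

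The genes with the largest ratios of members over SSPC-1-like cells were led by *Limch1*. This regulator of actomyosin was at 167.0 against 3.58 CPM in the control library (log2 ratio 5.54, 4.67 to 6.57) and at 53.5 against 8.63 CPM in the *Piezo1* fl/fl library (2.63, 1.96 to 3.33). *Col11a2*, a minor fibrillar collagen that nucleates fibrils, was at 262.1 against 20.2 CPM (3.70, 3.30 to 4.12) and 82.0 against 6.17 CPM (3.73, 3.02 to 4.51). *Cilp* had log2 ratios of 2.98 (2.90 to 3.05) and 1.78 (1.72 to 1.83). *Itga2*, the collagen-binding integrin alpha 2, had 3.09 (2.66 to 3.54) and 1.86 (1.48 to 2.25). The others named by the same ranking were *Sema3b*, *Uts2r*, *Pamr1*, *Loxl4*, *Col18a1*, *Dpp4*, *Sparcl1* and *C1qtnf3*, with log2 ratios from 2.79 to 3.75 for control cells and from 1.23 to 2.56 for *Piezo1* fl/fl cells. Of these 12 genes, *Col11a2* alone had a ratio in the *Piezo1* fl/fl library as large as in the control library. *Dpp4* is part of the fibroblast-like definition, and cells that met it were left out of the SSPC-1-like cells but not of members. The part of this in the *Dpp4* ratio was not tested.

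Of the genes lowest in members, *Fgfr2*, a receptor for fibroblast growth factors, was at 11.7 against 237.1 CPM in the control library (log2 ratio -4.35, -5.26 to -3.56) and at 6.24 against 152.0 CPM in the *Piezo1* fl/fl library (-4.61, -5.93 to -3.55). *Slit2*, a secreted guidance cue, had log2 ratios of -5.04 (-6.67 to -3.81) and -3.63 (-4.77 to -2.68). *H19*, an imprinted non-coding RNA, was at 28.7 against 657.8 CPM and at 62.4 against 929.8 CPM. *Rspo3*, which amplifies Wnt signalling, had 0 UMIs in control members, which allows up to 2.69 CPM, while SSPC-1-like cells had 56.0 CPM, and *Ostn*, which encodes the secreted peptide osteocrin, had 1 UMI (log2 ratio -6.17, -11.5 to -3.68). The others named were *Nppc*, *Mpzl2*, *Mme*, *Grem1*, *Snhg11*, *Dlk1* and *Efna5*.

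**Figure D3:**
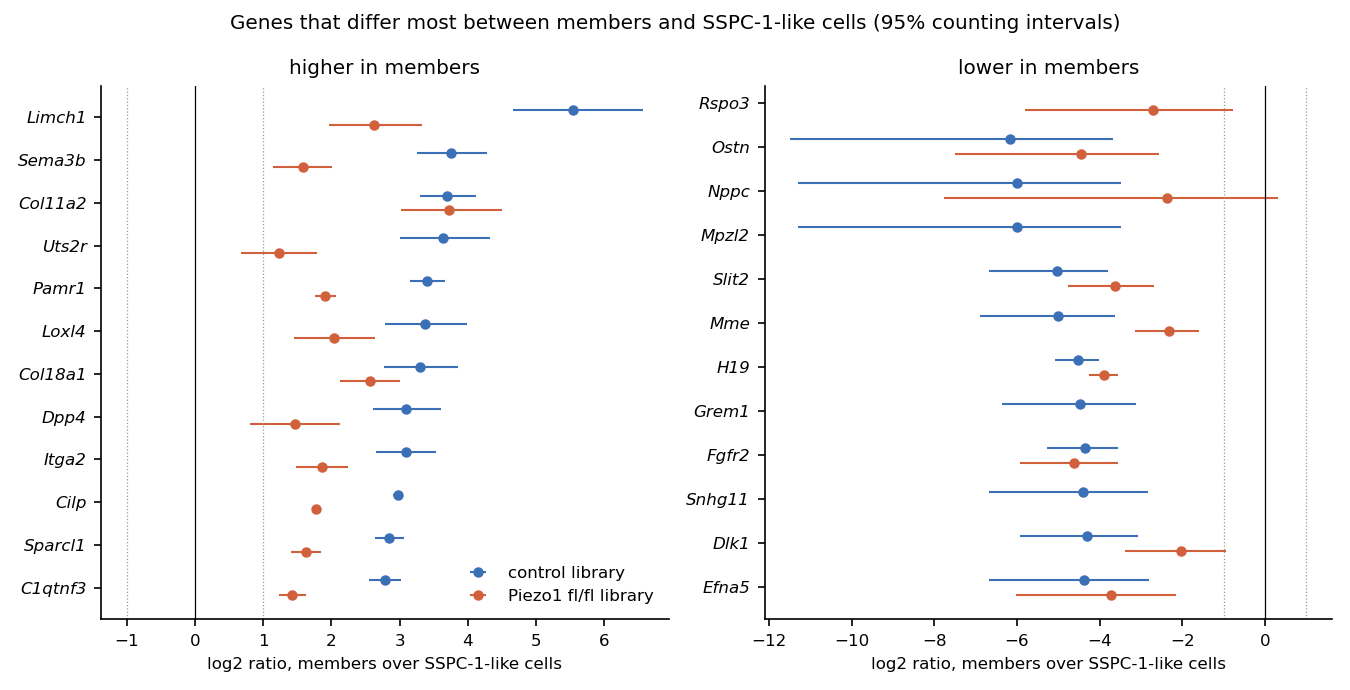
Log2 ratio of members over SSPC-1-like cells with 95% counting intervals for the 12 genes ranked highest in each direction in the control library, with dotted lines at 2-fold. A gene without UMIs in members of a library has no point there, as *Rspo3* in the control library, and *Col11a2* has nearly the same ratio in both libraries.

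Of 16 tendon matrix genes outside the rule, 16 passed the minimums, and 6 were higher and 1 lower in control members (median log2 ratio 0.58), with 3 higher and 1 lower in the *Piezo1* fl/fl library (0.48). The 6 were *Fmod*, *Cilp*, *Ecm2*, *Thbs1*, *Tnxb* and *Prg4*, and the lower gene was *Matn4*. *Prg4*, which encodes the lubricant lubricin, was 5.30-fold higher in control members and 1.20-fold in *Piezo1* fl/fl members. Of 13 genes known or reported for SSPC-1, 12 passed in each library, with 1 higher and 7 lower (medians -1.22 and -1.10). The higher gene was *Angptl7*, with log2 ratios of 1.59 (1.56 to 1.63) and 1.39 (1.34 to 1.44), and the lower ones included *Cdkn1c*, a cell cycle inhibitor, with -2.08 and -1.63, and *Fgf18* with -2.93 and -2.45. *Col8a1* and *Egfl6* are also on this list and are lower in part because they chose the SSPC-1-like cells.

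Osteogenic genes were low in members except *Postn*, most of whose UMIs in control members lay in those with *Col22a1*. Of 20 osteogenic genes, 9 passed in the control library, with 1 higher and 7 lower (median -1.62), and 7 in the *Piezo1* fl/fl library, with 1 higher and 4 lower (-1.44). *Runx2*, the master factor of osteoblasts, was at 39.5 CPM in control members and 173.7 CPM in control SSPC-1-like cells. *Dlx5*, a homeobox gene of the same lineage, was at 35.9 against 373.1 CPM. *Postn*, which encodes the matricellular protein periostin, was at 1315 against 325.0 CPM in the control library and at 913.9 against 228.8 CPM in the *Piezo1* fl/fl library, yet lay under the 10819 and 7263 CPM of SSPC-2-like cells, for which it was a gate. Members without *Col22a1* had *Postn* at 466.4 CPM (control) and 543.6 CPM (*Piezo1* fl/fl), and those with it 6457 and 3361 CPM. Cells that also met the SSPC-2-like gate were left out of the SSPC-1-like cells but not of members.

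Growth factor systems differed by component. Of 15 FGF and PDGF genes, 12 passed in the control library, with 1 higher and 5 lower, and 9 in the *Piezo1* fl/fl library, with 0 higher and 4 lower. *Fgf9* was the higher gene, at 93.4 against 15.6 CPM, while *Fgf18*, *Fgf7*, *Fgf2*, *Fgfr2* and *Pdgfra* were lower. Of 10 IGF system genes, 8 passed in each library, with 0 higher and 4 and 3 lower, among them *Igfbp5*, the most abundant IGF-binding protein gene here, at 3363 against 8774 CPM in the control library. Of 10 secreted Wnt inhibitors, 6 passed, with 1 higher in each library and 3 (control) and 2 (*Piezo1* fl/fl) lower. *Wif1* was the higher gene, at 1364 against 228.4 CPM in the control library, and *Sfrp4* was lower at 77.2 against 828.9 CPM. In the *Piezo1* fl/fl library 58.1% of the *Wif1* UMIs of members were in 5 cells, and without those the log2 ratio to SSPC-1-like cells was -0.07 in place of 1.12.

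Among collagens and the enzymes that process them, the lists differed. In the control library the fibrillar collagens and the processing genes had larger shares higher in members than the 3.36% of all genes. In the *Piezo1* fl/fl library the share over all genes was 2.12%. Of 11 fibrillar collagens, 8 passed, with 2 higher and 0 lower in the control library (*Col11a1* and *Col11a2*) and 0 higher and 1 lower in the *Piezo1* fl/fl library (*Col2a1*, whose log2 ratio was 1.56 when cells were thinned to 2500 UMIs). Of 9 fibril-associated collagens, 3 passed with none called. Of 12 network and basement membrane collagens, 9 passed with 1 higher (*Col18a1*) in each library, and 2 lower in the control library and 1 in the *Piezo1* fl/fl library. *Col8a1*, a gate of the SSPC-1-like cells, was lower in both. Of 24 genes for collagen folding, processing and crosslinking, 18 passed, with 4 higher and 1 lower in the control library and 1 higher in the *Piezo1* fl/fl library. The lysyl oxidases *Lox*, *Loxl2* and *Loxl4* were higher in control members, with log2 ratios of 1.45, 1.62 and 3.37, and *Loxl1* lower with -1.39. Of 13 small leucine-rich proteoglycans, 11 passed with 2 higher (*Fmod* and *Ecm2*) and 1 lower in each library.

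The remaining lists are given by their counts. The 10 tendon transcription factors had 7 and 6 past the minimums, with *Scx* higher in both libraries and *Klf2* lower in the control library. Elastic fibre genes had 14 and 13 past the minimums, with 0 higher and 2 and 4 lower. Thrombospondins, tenascins and periostin had 8, with 3 and 1 higher and 1 lower in each library, and proteases and their inhibitors 8 and 7, with 1 higher and 2 and 1 lower. TGF-beta pathway genes had 12, with 2 and 1 higher and 1 and 2 lower, and BMP and GDF genes 6 and 5, with 2 and 1 higher and 2 and 1 lower. Of the YAP target genes 15 passed with 0 higher and 1 lower in each library, and of the mechanosensing and Hippo genes 7 with none called. Immediate early genes, which respond to dissociation, had 11 past the minimums, with 1 and 0 higher and 1 lower, and their sum was 14030 CPM in control and 12652 CPM in *Piezo1* fl/fl members. Angiopoietin-like and VEGF genes had 4 and 3, with 3 and 2 higher, cartilage genes 2 in each library, with 1 and 0 higher and 1 lower, tendon sheath genes 3 and 6, with 1 and 0 higher, fibroblast markers 6 and 5, with 1 and 0 higher, and reelin receptors 1 and 0, with *Vldlr* lower.

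Members were not uniform, and levels of several genes differed with the entry gene they held. The rule required an entry gene, so members without *Kera* had to hold another. Some genes below were named for their ratio between members with and without an entry gene, so these contrasts are a description. *Kera* was found in 146 control members (81.6%) and 137 *Piezo1* fl/fl members (68.5%), *Chodl* in 84 (46.9%) and 118 (59.0%), *Col22a1* in 29 and 30, and *Reln* in 20 and 12. Control members fell into 94 with *Kera* and no *Chodl*, 52 with both and 32 with *Chodl* and no *Kera*, and *Piezo1* fl/fl members into 78, 59 and 59. *Col22a1* went with *Chodl*: of the 29 control members with *Col22a1*, 15 held both *Kera* and *Chodl*, 12 *Chodl* alone and 1 *Kera* alone, and of the 30 in the *Piezo1* fl/fl library these numbers were 5, 21 and 1. Members with *Chodl* had lower median depth than those without, 4401.5 against 5730 UMIs in the control library, and the part of depth in which entry genes a cell showed was not tested.

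*Wif1*, a secreted inhibitor of Wnt ligands, followed *Kera*. It was at 1861 CPM in control members with *Kera* alone, 807.3 CPM with both genes and 101.7 CPM with *Chodl* alone, and at 668.9, 197.6 and 6.97 CPM in the *Piezo1* fl/fl library. *Angptl7* followed the same order, at 14213, 9395 and 5765 CPM in control and 6299, 6026 and 2252 CPM in *Piezo1* fl/fl members. *Itga2* was at 236.0, 69.7 and 0 CPM and at 163.1, 126.6 and 38.4 CPM. *Ccn5*, a matricellular protein gene, was at 565.9 CPM in control members with *Kera* and 13.3 CPM without. Thus the *Kera* side of the population carried *Wif1*, *Angptl7*, *Itga2* and *Ccn5*.

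On the *Chodl* side stood *Mgp*, *Postn*, *Sparcl1* and *Slc5a3*. *Mgp*, which encodes the calcification inhibitor matrix Gla protein, was at 1218, 6980 and 10038 CPM in control members with *Kera* alone, both genes and *Chodl* alone, and at 3028, 5548 and 14418 CPM in the *Piezo1* fl/fl library. *Sparcl1*, which encodes the matricellular protein hevin, was at 62.3, 1152 and 1858 CPM and at 32.6, 231.6 and 868.0 CPM. *Postn* was at 474.9, 2250 and 3473 CPM in the control library and at 554.7, 512.5 and 1715 CPM in the *Piezo1* fl/fl library, where the middle class did not stand between the others. *Slc5a3*, a myo-inositol transporter gene, was at 66.6, 891.8 and 1072 CPM and at 30.6, 80.3 and 599.6 CPM. *Col18a1* was at 276.2 CPM in control members with *Chodl* and 28.8 CPM without.

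*Sparcl1*, *Slc5a3*, *Postn* and *Mgp* were higher still in members with the rarer entry genes *Col22a1* or *Reln*, which lay largely in the same cells. Many of these control members also held *Kera*: 15 of 29 with *Col22a1* and 12 of 20 with *Reln* held both *Kera* and *Chodl*. In the *Piezo1* fl/fl library these were 5 of 30 and 1 of 12. Control members with *Col22a1* held 130 *Reln* UMIs and those without held 1, and in the *Piezo1* fl/fl library these were 63 and 1. Control members with *Col22a1* had *Sparcl1* at 3308 CPM, *Slc5a3* at 1857 CPM and *Postn* at 6457 CPM, against 119.2, 161.0 and 466.4 CPM in those without. In *Piezo1* fl/fl members with *Col22a1* the values were 1626, 968.9 and 3361 CPM, against 124.1, 74.9 and 543.6 CPM. *Mgp* reached 18018 CPM in the 20 control members with *Reln* and 28157 CPM in the 12 *Piezo1* fl/fl members with *Reln*. *Scx* was at 2900 CPM in *Piezo1* fl/fl members with *Col22a1* and 1070 CPM in those without, and at 4408 and 1120 CPM with and without *Reln* (log2 ratio 1.98, 1.79 to 2.16). In control members these pairs were 196.4 and 126.5 CPM and 209.7 and 127.3 CPM. Across the *Kera* and *Chodl* classes of control members *Thbs4* ranged from 18842 to 22257 CPM, *Tnmd* from 3439 to 3649 CPM and *Scx* from 132.1 to 156.0 CPM. In *Piezo1* fl/fl members these ranges were 18480 to 23455, 3126 to 4017 and 1025 to 1638 CPM.

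**Figure D4:**
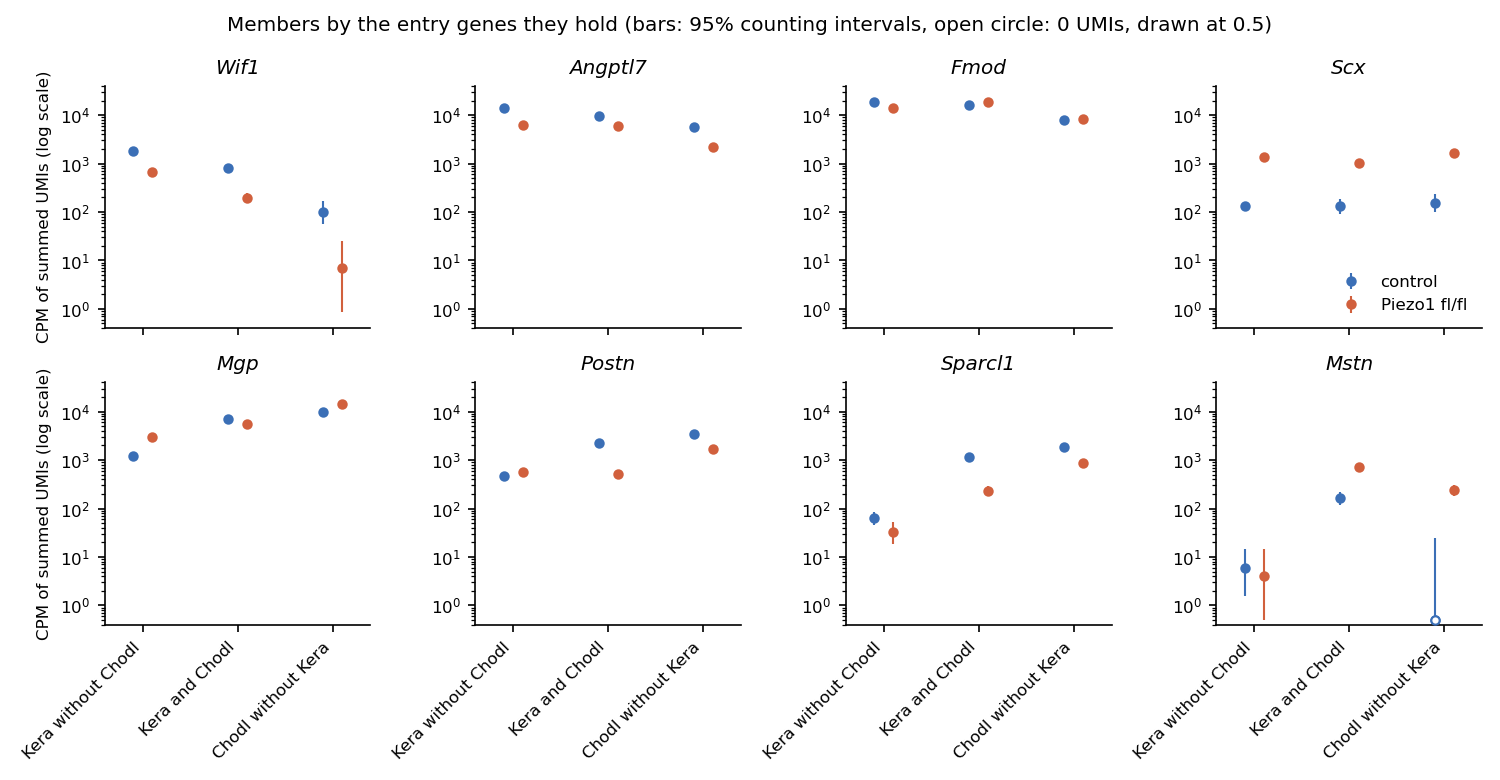
Levels of 8 genes in members with *Kera* and no *Chodl*, with both and with *Chodl* and no *Kera*, as CPM of summed UMIs on a log axis with 95% counting intervals. *Wif1* and *Angptl7* are highest with *Kera* alone, *Mgp* and *Sparcl1* with *Chodl* alone, and *Scx* differs between the libraries in every class.

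*Mstn* was scarce in the 5 comparison groups. It encodes myostatin, a TGF-beta family ligand best known as a brake on muscle mass and also made by tendon cells. It was at 43.98 CPM in control members (49 UMIs in 7 of 179 cells) and 269.0 CPM in *Piezo1* fl/fl members (302 UMIs in 43 of 200 cells). SSPC-1-like cells held 0 UMIs in the control library, which allows up to 0.976 CPM, and 18 (5.55 CPM) in the *Piezo1* fl/fl library. By class, *Mstn* was at 5.79, 165.1 and 0 CPM in control members and at 4.08, 716.3 and 237.1 CPM in *Piezo1* fl/fl members, so that nearly all its UMIs lay in members with *Chodl*. In the control library 93.9% of its UMIs were in 5 members and 71.4% in 1, so that its control level rests on very few cells.

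Members of both libraries were then compared with each other, to show how they differed where *Piezo1* was floxed. Of 1797 genes that passed the minimums, 46 were at least 2-fold higher in *Piezo1* fl/fl members (2.56%) and 52 lower (2.89%), and the median log2 ratio over all of them was 0.00. Some genes high in members differed little between the libraries: *Fmod* had a log2 ratio of -0.25 (-0.28 to -0.22), *Cilp* of -0.01 (-0.07 to 0.04), and *Six2* of -0.05 (-0.54 to 0.43). Others differed more, as *Limch1* with -1.64 (-2.09 to -1.22), *Col11a2* with -1.68 and *Mkx* with -0.52 (-0.85 to -0.19). For *Thbs4* and *Tnmd*, which the rule used, the ratios were 0.05 and -0.07.

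*Scx* was the gene with the second largest ratio and the largest that was spread over many cells. It was at 136.4 CPM (115.6 to 159.9) in control and 1310 CPM (1244 to 1379) in *Piezo1* fl/fl members, a 9.60-fold difference (log2 ratio 3.26, 3.02 to 3.51). The median control member held no *Scx* UMI and the highest 12.3 per 10000, while the median *Piezo1* fl/fl member had 5.54 and the highest 109.2. The share of members with a UMI was 39.7% and 75.5%, and 23.6% and 68.7% after thinning to 2500 UMIs, against 0.990% and 4.44% of mural-like cells. The difference was also present in each class, with log2 ratios of 3.19 in members with *Kera*, 3.29 without, 3.22 with *Chodl* and 3.29 without. It was not limited to members: the log2 ratio was 2.71 (2.44 to 2.99) in SSPC-1-like and 2.85 (2.56 to 3.14) in SSPC-2-like cells. Mural-like cells, which stand in for background, had 2.78 and 23.1 CPM.

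*Scx* lies on the plus strand at chr15:76457452-76459458 (GRCm38, GENCODE vM21), inside *Bop1*, which is transcribed from the other strand, and whether the counting used strand is not given in the sources used here. *Bop1* had 17.95 and 16.0 CPM in control and *Piezo1* fl/fl members. *Angptl7*, on the minus strand at chr4:148495183-148500460, likewise lies inside *Mtor*, which had 17.95 and 28.5 CPM. How reads of the overlaps were assigned was not tested.

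*Angptl7* was lower in *Piezo1* fl/fl members, at 5151 against 11891 CPM (2.31-fold, log2 ratio -1.21, -1.25 to -1.16). The median member had 97.2 UMIs per 10000 (control) or 23.5 (*Piezo1* fl/fl), the ranges of single members overlapped, and the share of members with a UMI was 87.7% and 73.5%. SSPC-1-like cells differed 2.01-fold, at 1965 against 3943 CPM, and in mural-like cells 13.9% and 7.05% held a UMI. The difference held among members with *Chodl*, with a log2 ratio of -0.93, and without, with -1.19.

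The other genes ranked highest in *Piezo1* fl/fl members follow. *Acan*, which encodes the large proteoglycan aggrecan, was at 14.4 and 90.9 CPM (log2 ratio 2.66, 1.89 to 3.52) in members and at 57.9 and 74.3 CPM in SSPC-1-like cells. *Dpt*, the fibroblast gene for dermatopontin, was at 67.3 and 310.9 CPM (2.21, 1.84 to 2.59) in members and at 84.9 and 308.0 CPM in SSPC-1-like cells. *Tac1*, the precursor of substance P, was at 37.7 and 192.4 CPM, and *Sfrp4* at 77.2 and 405.3 CPM. The difference in *Sfrp4* turned round in members without *Kera*, at 159.0 and 48.6 CPM (log2 ratio -1.71, -2.74 to -0.72), against 64.4 and 540.4 CPM in those with *Kera*. *Cxcl1*, *Nfkbiz* and *Tnfaip6*, genes of the inflammatory response, had log2 ratios of 2.99, 1.76 and 1.70 in members and 2.42, 0.91 and 1.10 in SSPC-1-like cells. *S100a9*, a neutrophil gene, had 3 UMIs in control and 109 in *Piezo1* fl/fl members, of which 67.0% were in 1 cell. Mural-like cells had 2.78 and 97.3 CPM of *S100a9*, close to the levels in members.

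Several genes were lower in *Piezo1* fl/fl members by more than in SSPC-1-like cells, although some rested on few cells and most were lower in both groups. *Eln*, which encodes elastin, was at 438.0 and 64.1 CPM in members (6.83-fold, log2 ratio -2.77, -3.15 to -2.41) and at 450.5 and 686.3 CPM in SSPC-1-like cells. The 5 control members with most *Eln* held 51.8% of its UMIs, and the ratio without the 5 top members of each library was -3.29. The difference lay in members with *Kera*, at 499.4 and 31.9 CPM, whereas those without *Kera* were at 46.4 and 149.2 CPM (log2 ratio 1.69, 0.53 to 3.08). *C3*, a complement component, was at 382.4 and 52.6 CPM, *Pcolce2*, an enhancer of procollagen cleavage, at 242.4 and 53.5 CPM, *Gpnmb*, a transmembrane glycoprotein gene, at 185.8 and 40.1 CPM, and *Bmp3* at 90.7 and 16.0 CPM. *Gdf10* was at 142.7 and 13.4 CPM, but 96.9% of its control UMIs were in 5 members, and without them the log2 ratio was -0.78 in place of -3.42. *Cd74*, an antigen presentation gene, had 68.1% of its control UMIs in 1 member, and its log2 ratio was -1.23 without the top members in place of -2.70. *Pappa2*, an IGF-binding protein protease, and *Cyp26a1*, which degrades retinoic acid, had all their *Piezo1* fl/fl UMIs in 5 members or fewer, at 19.6 and 10.7 CPM against 224.4 and 115.8 CPM. In SSPC-1-like cells the log2 ratios were -0.68 for *C3*, -0.38 for *Pcolce2*, -0.73 for *Gpnmb* and -1.17 for *Bmp3*. They were -0.99 for *Gdf10*, -0.75 for *Pappa2* and -2.13 for *Cyp26a1*, so these genes were lower there too.

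**Figure D5:**
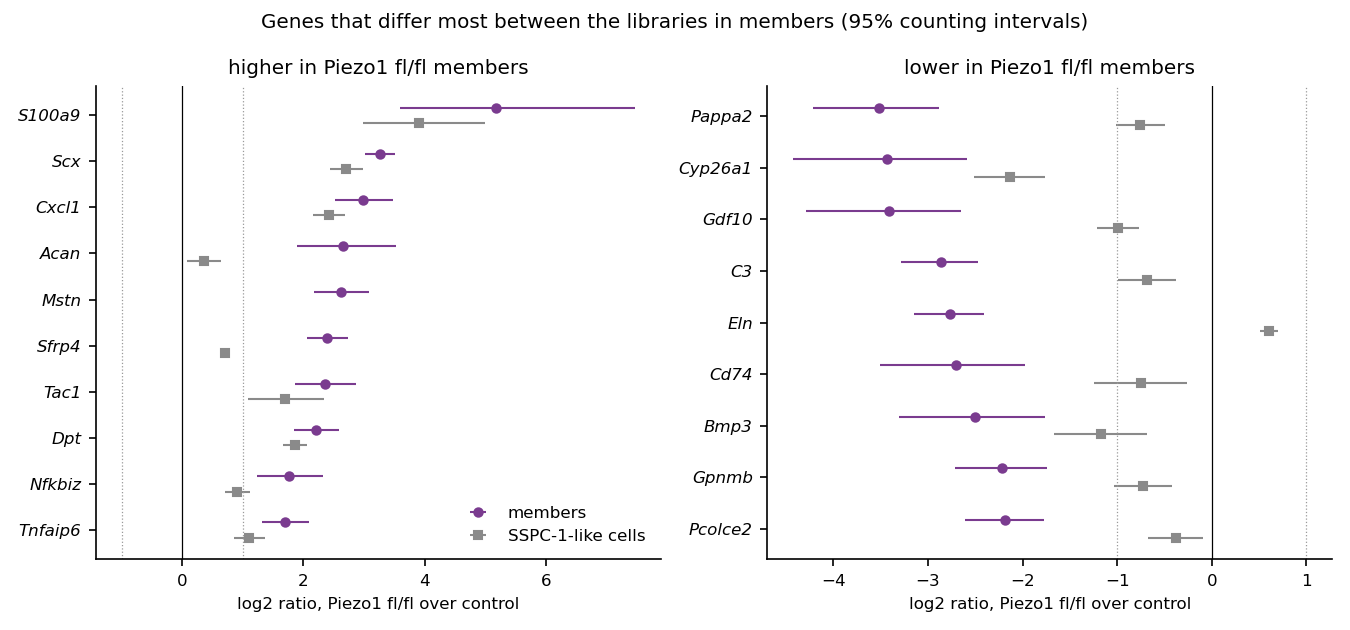
Log2 ratio of *Piezo1* fl/fl over control with 95% counting intervals in members (circles) and SSPC-1-like cells (squares) for the genes ranked highest in each direction in members, with dotted lines at 2-fold. *Scx*, *Cxcl1* and *Dpt* are higher in both groups, whereas *Eln* is lower in members and higher in SSPC-1-like cells; *Mstn* has no square because control SSPC-1-like cells held 0 UMIs.

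By lists, genes were called in many groups, beside 2.56% higher and 2.89% lower over all genes tested. Some lists lay well above these shares, as BMP and GDF genes with 2 higher and 3 lower of 6 tested, and others had none called. Most lists had few genes tested, so their shares are coarse. Of the 10 tendon transcription factors 7 passed the minimums, and *Scx* was higher. Of 15 tendon matrix genes tested, *Thbs3* was higher and *Prg4* lower, at 1337 against 3418 CPM. Fibrillar collagens had 8 tested, with *Col3a1* (7998 and 17047 CPM) and *Col5a3* higher and *Col11a2* lower, while type I collagen was level. Fibril-associated collagens had 3 tested, with *Col14a1* higher (log2 ratio 1.43, 1.16 to 1.72), and network collagens 9 with none called. Elastic fibre genes had 11 tested, with 0 higher and *Eln*, *Ltbp1* and *Mfap4* lower, the last 2 also at -1.28 and -0.47 in SSPC-1-like cells.

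Signalling lists gave a mixed picture. BMP and GDF genes had 6 tested, with *Mstn* and *Nbl1* higher and *Bmp3* and *Gdf10* among the lower ones (median log2 ratio -1.27). YAP target genes had 13 tested, with *Tgfb2* higher and *Igfbp3*, *Amotl2* and *Crim1* lower (median 0.17), and mechanosensing and Hippo genes 6 with none called. TGF-beta pathway genes had 11 tested with *Tgfb2* higher, secreted Wnt inhibitors 5 with *Sfrp4* higher and *Wif1* lower, IGF genes 6 with *Igfbp3* lower and FGF and PDGF genes 5 with *Fgf9* lower. Tendon sheath genes had 4 tested, with *Tppp3* and *Ly6a* higher and *Prg4* lower, fibroblast markers 6, with *Dpt* and *Ly6a* higher and *Dpp4* lower, and cartilage genes 2, with *Acan* higher and *Col11a2* lower. The fibroblast markers summed to 1437 CPM in control and 2232 CPM in *Piezo1* fl/fl members, and their part in these differences was not tested. Collagen processing genes had 17 tested with *Pcolce2* lower, proteoglycans 10 with *Omd* lower, SSPC-1 genes 10 and angiopoietin-like genes 3, both with *Angptl7* lower, and thrombospondins, tenascins and periostin 7 with *Thbs3* higher. Of 11 immediate early genes, 7 proteases and inhibitors and 1 osteogenic gene tested, none was called.

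Cells at both thresholds that held no entry gene and no *Wnt16* or *Npnt* numbered 51 (control) and 195 (*Piezo1* fl/fl), at median depths of 3572 and 4125 UMIs. In the *Piezo1* fl/fl library they carried *Scx* at 696.5 CPM and *Fmod* at 8273 CPM, between SSPC-1-like cells and members. They carried *Six2* and *Mstn* at 2.18 CPM each, with 2 UMIs of each gene, and *Cdkn1c* at 469.8 CPM, close to the 500.1 CPM of SSPC-1-like cells and above the 162.1 CPM of members. *Eln* was at 488.3 CPM in them and 64.1 CPM in members. In the control library the same kind of cell was level with members in *Scx* (141.2 and 136.4 CPM) and *Eln* (456.8 and 438.0 CPM), and had *Six2* at 24.9 CPM and *Cdkn1c* at 427.7 CPM. The cells that met all of the rule but for *Wnt16* or *Npnt*, 11 and 16 in number, had *Cdkn1c* at 159.8 and 136.7 CPM and *Six2* at 53.3 and 68.4 CPM, and in the *Piezo1* fl/fl library *Mstn* at 250.7 CPM, all near the levels of members.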

How the data were processed

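Single-cell libraries were made by the authors with BD Rhapsody from sorted Prx1-lineage periosteal cells, 1 library per genotype. The deposited matrices hold raw UMI counts per gene and barcode. The submitters' processing notes name fastp, UMI-tools, STAR and Seurat 4.0.3, while the genome build, annotation and strand setting of the counting are not given in the sources used here.

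The members and the gene lists were chosen with earlier results of these data known. From the deposited counts, barcodes outside 1000 to 5000 detected genes or at 25% mitochondrial UMIs and over were dropped, doublets were left in, and gates for members and 5 comparison groups were applied to UMIs or UMIs per 10000. SSPC-2-like cells also needed *Ibsp* under 10 per 10000, and blood cells at least 2 UMIs over *Ptprc*, *Laptm5*, *Coro1a* and *Cd53*. A cell that also met another comparison gate or the blood gate was in no comparison group, while members were kept in either case. UMIs were summed per group and library, given as CPM with exact Poisson intervals, and compared by log2 ratios with exact conditional intervals. With 1 library per genotype no p-value was computed, and a gene counted as higher or lower at 2-fold if its larger value reached 100 UMIs and 50 CPM. Of 345 genes on 31 lists, 344 were among the 31253 features.

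Genes were named by rule: those of the rule and lists, the 15 most abundant in control members, the 12 with the largest ratio per direction over SSPC-1-like cells that were also 2-fold in the other library, the 10 per direction between libraries, and the 3 per entry gene with the largest ratio of members with over without it. Mitochondrial, ribosomal, hemoglobin, sex-linked marker and predicted genes were left out of the rankings, and a few ranked or listed genes are not reported here. The calculation of ratios was checked on simulated group sums with known folds and counting error only, so variation between cells was not covered. The alternatives tried were looser and stricter thresholds, no exclusion of *Wnt16* and *Npnt*, other cell filters, removal of Scrublet doublets, thinning to 2500 UMIs, a random split of UMIs, totals without abundant genes, a minimum of 20 UMIs, and a stricter SSPC-1-like gate. Python 3.11.15, numpy 2.4.6, scipy 1.17.1, pandas 2.3.3, scanpy 1.11.5 and matplotlib 3.10.9 were used.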

Additional observations from a re-analysis of the deposited data

Results flagged for a closer look

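Of 167 list and named genes compared, 25 had a ratio of *Piezo1* fl/fl over control that went one way in members and the other way in SSPC-1-like cells, with both counting intervals apart from 0. Of these, 17 were lower and 8 higher in *Piezo1* fl/fl members, the latter including *Pdgfra* (0.77 in members and -0.16 in SSPC-1-like cells), *Dkk3* (0.77 and -0.20) and *Ctsk* (0.51 and -0.30). With 1 library per genotype this difference between the groups was not tested. Some of the 167 genes had been named for their difference between the libraries, and no such count was made over all genes. The number 25 is therefore not a share to be read as a trait of members. Ratios near 0 also qualified, as -0.04 for *Bgn* in SSPC-1-like cells. The 9 genes whose ratios lay at least 1 log2 unit apart follow, all of them lower in *Piezo1* fl/fl members. *Eln* had a log2 ratio of -2.77 in members and 0.61 in SSPC-1-like cells. *Ccn5* had -1.68 and 0.75, and *Prg4* had -1.35 and 0.80. *Sparcl1* stood at -0.83 and 0.40, and *Lox*, the collagen crosslinking enzyme, at -0.66 and 0.38. *Tnxb*, which encodes tenascin X, gave -0.55 and 0.86, and *C1qtnf3* gave -0.49 and 0.86. For *Itga2* the values were -0.47 and 0.75, and for *Thbs1* -0.20 and 0.81.

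Barcodes that the cell filters removed also met the rule, 47 in the control library (2.83% of 1663 removed barcodes, 2.08 to 3.74) and 45 in the *Piezo1* fl/fl library (1.93% of 2328, 1.41 to 2.58). All of them lay under the minimum of 1000 genes, with medians of 1532 and 1426 UMIs. They had *Scx* at 71.2 and 847.0 CPM, *Angptl7* at 9114 and 4356 CPM, *Fmod* at 14582 and 12689 CPM and *Cilp* at 5767 and 5883 CPM.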

How the results depend on the processing

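No paired analysis was possible because each genotype had 1 library, and no replicate could be left out. Stricter thresholds gave shares of members of 2.99% (control) and 2.76% (*Piezo1* fl/fl), looser ones 4.81% for *Piezo1* fl/fl, and all cells at both thresholds, a setting chosen after seeing the data, 5.72% and 8.58%. The other filters, including removal of Scrublet doublets, which marked 1 member in each library, kept the shares within their counting intervals. Of genes higher in control members than in SSPC-1-like cells, 98 became 42 after thinning, 54 with split UMIs and 386 with a minimum of 20 UMIs, and 293 lower genes became 171 after thinning and 1229 with 20 UMIs. In the *Piezo1* fl/fl library 61 higher genes became 34 with split UMIs and 240 with 20 UMIs, and 201 lower genes became 133 after thinning, 1044 with 20 UMIs and 82 with all cells at both thresholds. Between the libraries 46 higher genes became 26 after thinning and 262 with 20 UMIs, and 52 lower genes became 14, 24 (split UMIs) and 420. Thinned and split counts tested fewer genes, between 597 and 1757, and the minimum of 20 UMIs more. The log2 ratio of *Cd74* in control members over SSPC-1-like cells was -0.59 after thinning and -0.14 without the top 5 members. That of *Col2a1* in the *Piezo1* fl/fl library was 1.56 after thinning, and that of *Wif1* was -0.068 without the top 5 members. No other gene of the lists or the naming rule that was called changed sign. The settings without the top 5 members and with *Kera* members alone were also chosen after seeing the data. Counting depth limits genes under about 3 UMIs per group, which equals 2.69 CPM in control and 2.67 CPM in *Piezo1* fl/fl members.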
